A study of Ovis aries with 23 samples.

Results

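Levels of 14 mRNA markers in the lung were compared between the Ph2 and Ph1 phenotype of ovine acute respiratory distress syndrome at an observation time of 6 h. The sample labels gave this time for 8 of 23 animals, 5 of Ph1 and 3 of Ph2. Animals of both groups were anesthetized, mechanically ventilated female Merino-Dorset crossbred ewes that received intravenous oleic acid (OA), which injures the lung capillaries. Ph1 animals (OA_6h) received OA alone, while Ph2 animals (LPS_IV_6h) also received intravenous lipopolysaccharide (LPS), a cell wall component of Gram-negative bacteria. Every animal analysed here was injured, so a difference describes what accompanied LPS in lungs already exposed to OA. RNA from 3 lobes of the right lung was pooled per animal. The 3 Ph2 animals (C4, C5 and G33) and 4 of the Ph1 animals (C1, C2, C3 and C11) were controls of the CELTIC study. The remaining Ph1 animal, SD6, came from the pilot of the STARDUST study, which used a different flock, so each result on which it bears is given with and without it. SD6 and G33 also stood apart in RNA quality, as the supplementary RNA integrity numbers of all their lobes were above those of the other 6 animals at this time.

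In septic and other severe lung injury, neutrophils leave the blood, lodge in lung capillaries and release granule proteins, while LPS activates macrophages and other myeloid cells through Toll-like receptors. Human patients have been divided into a hypoinflammatory (P1) and a hyperinflammatory (P2) subphenotype, which differ in blood leukocyte transcripts of this kind. The question put to the sheep was whether markers higher in human P2 are higher in Ph2 lung, and markers higher in human P1 are lower. The 9 P2 markers were MMP8, OLFM4, CD177, LCN2, TCN1, RETN, GPR84, ANKRD22 and CEACAM1, and the 5 P1 markers were MME, ADGRE3, TGFBI, SULF2 and HAL. Whole lung holds many cell types, and in such bulk samples fewer cells of a type and less RNA per cell cannot be told apart. The panel held no marker measured for a cell type alone, so the makeup of the tissue could not be checked.

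Each mRNA was counted with a pair of probes that hybridize side by side, a reporter probe (A) and a capture probe (B). These were used with a separate set of reporter and capture tags. The capture probes are shown for the 5 markers with the largest mean differences, and for CEACAM1, for which all 3 Ph2 animals lay below the Ph1 median, against the human direction. The lower-case part, 25 bases at the 5′ end, was shared by all 22 capture probes of the assay. The capitals mark the part specific to the sheep mRNA, and all are written 5′ to 3′.
GPR84: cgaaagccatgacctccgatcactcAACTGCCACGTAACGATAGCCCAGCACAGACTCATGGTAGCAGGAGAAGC
OLFM4: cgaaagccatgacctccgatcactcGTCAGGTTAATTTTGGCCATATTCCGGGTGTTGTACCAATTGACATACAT
MMP8: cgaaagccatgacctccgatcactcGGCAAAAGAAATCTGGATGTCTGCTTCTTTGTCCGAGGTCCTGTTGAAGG
ADGRE3: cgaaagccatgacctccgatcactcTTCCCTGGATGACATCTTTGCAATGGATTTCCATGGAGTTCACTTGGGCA
HAL: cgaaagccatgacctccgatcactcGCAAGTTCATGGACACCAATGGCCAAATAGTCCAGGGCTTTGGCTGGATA
CEACAM1: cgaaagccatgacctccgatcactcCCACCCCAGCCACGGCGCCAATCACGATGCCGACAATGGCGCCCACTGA

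The specific part was 50 bases long for 5 of these and 49 bases for CEACAM1. In the specific part of the 16 marker capture probes, CEACAM1 had the highest GC content, 67.3%, and RBP7 the lowest, 34%. In the deposited table the 20 rows carry identifiers in place of gene names. Marker names were therefore assigned by place: the 16 rows T001 to T013 and T024 to T026 took the names of the 16 marker probes in the order of the supplementary probe table. All values below rest on this order. T007 and T011, at the places of ZDHHC19 and RBP7, and T036 to T039, which have no place among the markers, keep their identifiers.

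Values are log2 normalized counts, so a difference of 1 is a 2-fold change, and group values are means ± SD over n = 5 Ph1 and n = 3 Ph2 animals. The counts behind them summed over the 20 rows to between 13871 and 19320 per animal in Ph2 and to between 15985 and 28466 in Ph1, where SD6 had the highest sum. T007 was at 4 to 13 counts and T011 at 2 to 27 counts. Counts were low in some animals for 3 markers, with 17 to 109 for MMP8, 10 to 29 for CD177 and 20 to 1316 for OLFM4. Each was above T007 and T011 in all 8 animals, but for CD177 only barely in C3 and C1. CD177 had 10 counts beside 9 for T007 in C3, and 29 beside 27 for T011 in C1, within counting error. The other 11 markers had at least 64 counts. Poisson 95% intervals are given for the lowest counts. They cover counting error only and take the counts as not background-subtracted.

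Differences in the human direction were largest for GPR84, OLFM4 and MMP8, which had 3.10-fold, 4.95-fold and 2.55-fold higher means in Ph2, and for HAL and ADGRE3, with means 2.07-fold and 1.73-fold lower. For each of these 5 markers, all 3 Ph2 animals lay on the same side of the Ph1 median. The same held for CD177, ANKRD22 and CEACAM1, and for T007 and T039 among the rows without a marker name. It was thus not particular to the markers with the largest differences. None passed an exact Mann-Whitney U test (two-sided), in which 5 against 3 animals allow no p below 0.0357 and a row must show no overlap to reach it. The test called 0 of 20 rows (0%) at an unadjusted p below 0.05, and 0 of 20 rows (0%) had groups without overlap. The exact permutation test of the means also called 0 rows. The lowest p of the 20 rows was 0.0714, for ADGRE3, with a Benjamini-Hochberg adjusted p of 0.556 over all 20. Fitted with limma, 3 markers had an unadjusted p below 0.05 (MMP8, OLFM4 and ADGRE3), and none an adjusted p below 0.05 (lowest 0.276).

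**Figure D1:**
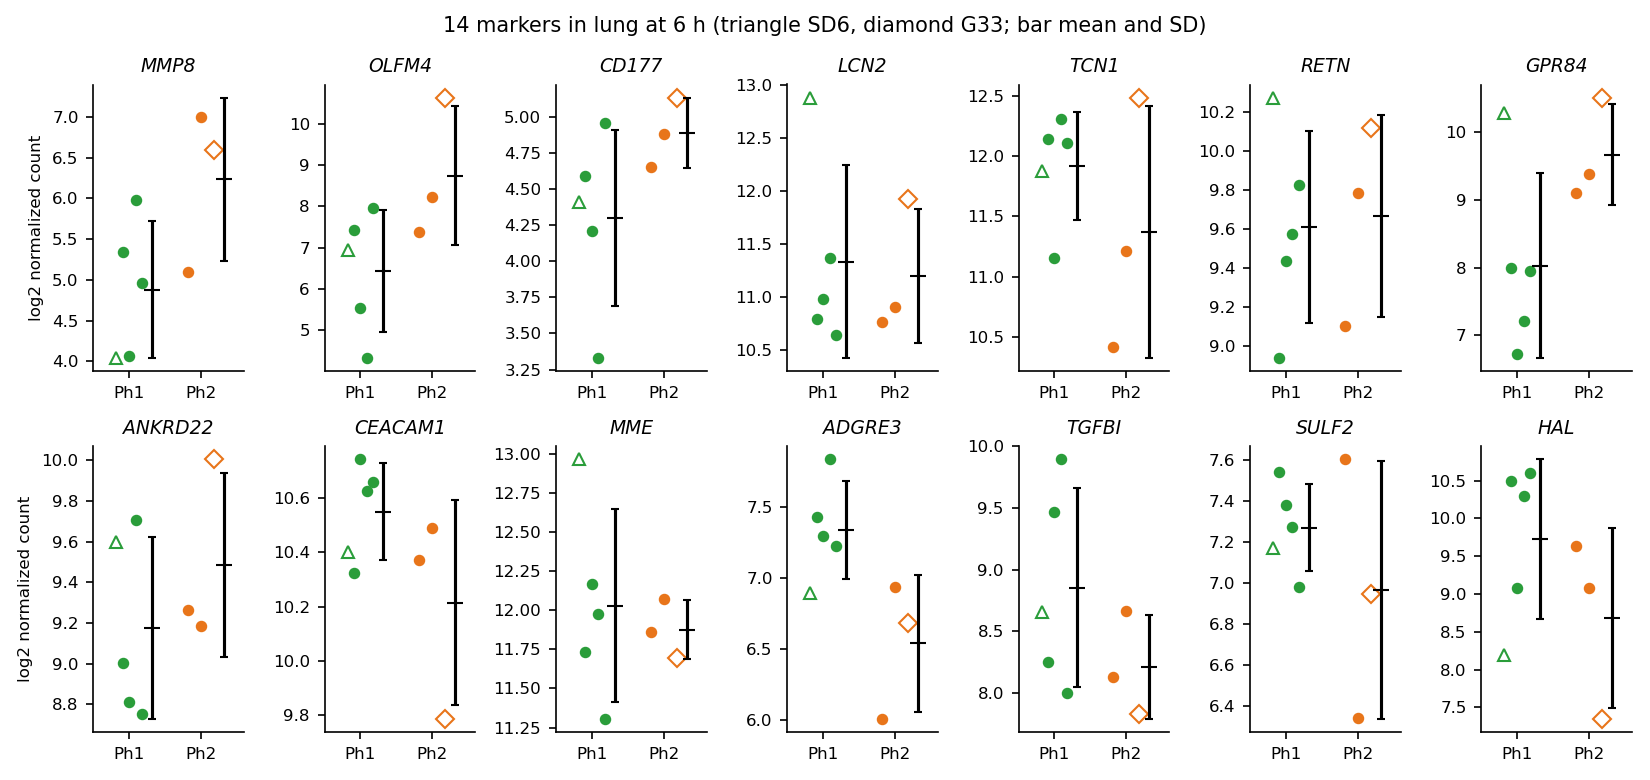
Log2 normalized count (y axis, scaled for each panel) of the 14 markers in each animal at 6 h, Ph1 in green and Ph2 in orange, with SD6 as a triangle, G33 as a diamond and bars for mean and SD. GPR84 of SD6 (10.28) stands among the Ph2 animals, while the other 4 Ph1 animals lie at 7.99 or below.

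Of 5 transcripts of neutrophil granule and surface proteins, MMP8, OLFM4 and CD177 had higher and LCN2 and TCN1 lower means in Ph2. MMP8 encodes the collagenase of neutrophil granules. Its values were 5.09 in C4, 7.004 in C5 and 6.60 in G33 for Ph2, and 4.04 in SD6, 5.34 in C1, 4.07 in C2, 5.99 in C3 and 4.96 in C11 for Ph1. C5 and G33 were above all Ph1 animals, and C4 lay below C1 and C3. The mean of 6.23 ± 1.01 in Ph2 exceeded that of 4.88 ± 0.84 in Ph1 by 1.35 (limma 95% interval 0.05 to 2.65, exact Mann-Whitney p 0.143, limma unadjusted p 0.0431). Without SD6, whose 17 counts (95% interval 9.90 to 27.2) were the lowest, the difference was 1.14 (−0.16 to 2.45).

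OLFM4 encodes olfactomedin, a granule glycoprotein found in a subset of neutrophils. Its values were 7.38 in C4, 8.22 in C5 and 10.64 in G33 for Ph2, and 6.95 in SD6, 7.42 in C1, 5.55 in C2, 4.33 in C3 and 7.95 in C11 for Ph1. It had the widest range of the panel, from 20 counts in C3 (95% interval 12.2 to 30.9) to 1316 in G33, and C4 overlapped with C1 and C11. Ph2 had a mean of 8.75 ± 1.69 against 6.44 ± 1.48 in Ph1, which is 2.31 higher (limma 95% interval 0.16 to 4.45, exact Mann-Whitney p 0.143, limma unadjusted p 0.0378). The difference was 1.36 without G33, 1.78 without C3 and 2.43 without SD6.

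CD177, a glycoprotein on the neutrophil surface, was at 4.65 in C4, 4.88 in C5 and 5.13 in G33, against 4.41 in SD6, 4.59 in C1, 4.21 in C2, 3.33 in C3 and 4.96 in C11. C11 was the only Ph1 animal above any Ph2 animal. The means of 4.89 ± 0.24 and 4.30 ± 0.61 differed by 0.59, or 1.503-fold (limma 95% interval −0.26 to 1.43, exact Mann-Whitney p 0.143). Before normalization the counts were 25 to 29 in Ph2 and 10 to 29 in Ph1, so the order rests on few counts. C3, with 10 counts (95% interval 4.80 to 18.4), was the lowest, and the difference without it was 0.35.

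LCN2 encodes lipocalin 2, which binds iron-carrying siderophores and is made by neutrophils and by airway epithelium. It was at 10.76 in C4, 10.91 in C5 and 11.92 in G33, against 12.88 in SD6, 10.79 in C1, 10.99 in C2, 11.37 in C3 and 10.64 in C11. SD6 had the highest value of the 8 animals, and the other 4 Ph1 animals spanned less than the 3 Ph2 animals. The means were 11.20 ± 0.63 in Ph2 and 11.34 ± 0.91 in Ph1 (difference −0.14, limma 95% interval −1.35 to 1.07, exact Mann-Whitney p 1). Without SD6 the sign turned, with a difference of 0.25 (−0.58 to 1.08, exact Mann-Whitney p 0.857).

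TCN1 encodes the cobalamin-binding protein of neutrophil granules. It was at 10.42 in C4, 11.21 in C5 and 12.49 in G33, and at 11.87 in SD6, 12.14 in C1, 11.16 in C2, 12.31 in C3 and 12.11 in C11. Ph2 thus held both the lowest and the highest animal. The difference in means was −0.55 (exact Mann-Whitney p 0.786), −1.10 without G33 and −0.070 without C4, against the human direction.

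Among transcripts of myeloid activation, GPR84 differed most. It encodes a receptor for medium-chain fatty acids on neutrophils and macrophages, and its mRNA is known to be inducible by LPS. GPR84 was at 9.11 in C4, 9.38 in C5 and 10.52 in G33, against 10.28 in SD6, 7.99 in C1, 6.73 in C2, 7.21 in C3 and 7.95 in C11. With all 8 animals, the mean of 9.67 ± 0.75 in Ph2 was 1.63 above that of 8.03 ± 1.37 in Ph1 (limma 95% interval −0.05 to 3.31, exact Mann-Whitney p 0.143, adjusted p 0.556). Only SD6 among the Ph1 animals reached the Ph2 range.

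Within the 7 CELTIC animals, GPR84 was 4.59-fold higher in Ph2, and the lowest Ph2 animal lay 1.12 above the highest Ph1 animal (Ph1 7.47 ± 0.61, n = 4, difference 2.20, limma 95% interval 1.15 to 3.25). The exact Mann-Whitney p was 0.0571, the smallest that 4 against 3 animals allow, with an adjusted p of 0.571 over the 20 rows. In a limma fit of these 7 animals, chosen after the values were seen, GPR84 had an adjusted p of 0.0232 and no other row passed. This call depended on single animals. With another CELTIC animal left out as well, the limma adjusted p of GPR84 ranged from 0.0176 (without C4) to 0.0793 (without G33), and was above 0.05 without C2, C3, C5 or G33. SD6 differed from the other animals in study and flock. The paper also names the time gap between the studies and sample age as possible influences on its 24 h results. How these bear on the GPR84 level of SD6 was not tested. SD6 and G33, the animals with the highest RNA integrity, were also the highest for GPR84, LCN2 and RETN and the lowest for HAL. With both left out (n = 4 and n = 2, chosen after the values were seen), the difference was 1.77 for GPR84, −0.11 for LCN2, −0.00019 for RETN and −0.76 for HAL. The lack of overlap for GPR84 in these animals follows from that in the 7 CELTIC animals, as leaving out G33 could not create overlap. It is thus no further check (smallest possible exact Mann-Whitney p 0.133).

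RETN encodes resistin, a secreted protein that myeloid cells make in many species. Its values of 9.10 in C4, 9.79 in C5 and 10.12 in G33 lay within those of Ph1, which were 10.28 in SD6, 8.94 in C1, 9.44 in C2, 9.57 in C3 and 9.83 in C11. The difference was 0.058 (limma 95% interval −0.77 to 0.89), and 0.22 without SD6. ANKRD22, an ankyrin repeat protein, was at 9.26 in C4, 9.18 in C5 and 10.01 in G33, and at 9.60 in SD6, 9.003 in C1, 8.81 in C2, 9.71 in C3 and 8.75 in C11. All 3 Ph2 animals were above the Ph1 median, and the difference was 0.31 (exact Mann-Whitney p 0.393) and 0.049 without G33.

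CEACAM1, an adhesion molecule of epithelium, endothelium and leukocytes, ran against the human direction. It was at 10.37 in C4, 10.49 in C5 and 9.78 in G33, against 10.40 in SD6, 10.32 in C1, 10.74 in C2, 10.63 in C3 and 10.66 in C11. All 3 Ph2 animals were below the Ph1 median, with a mean of 10.22 ± 0.38 against 10.55 ± 0.18 (difference −0.34, limma 95% interval −0.93 to 0.26, exact Mann-Whitney p 0.25). Without G33, the lowest animal, the difference was −0.12.

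**Figure D2:**
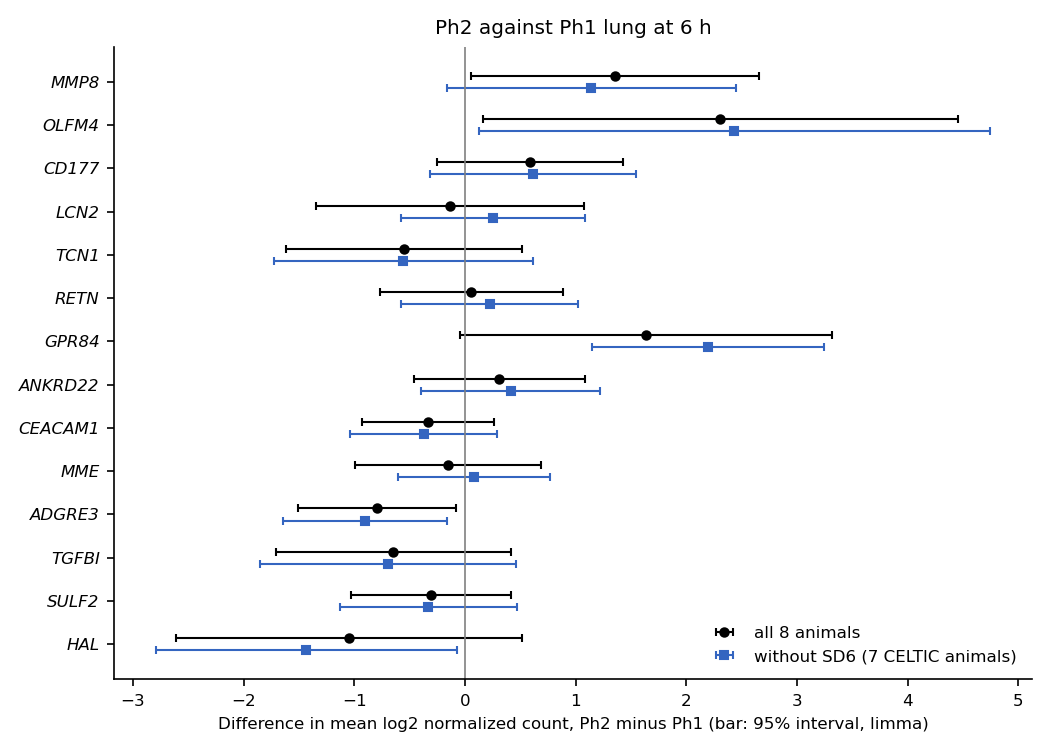
Difference in mean log2 normalized count, Ph2 minus Ph1 (x axis), for each marker with its 95% interval from limma, for all 8 animals (black circles) and for the 7 CELTIC animals (blue squares). With SD6 left out, GPR84 moves from 1.63 to 2.20 and its interval clears 0, while the interval of MMP8 comes to include 0.

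The 5 markers of human P1 all had lower means in Ph2. ADGRE3, an adhesion G protein-coupled receptor of myeloid cells, had the lowest p of the panel. It was at 6.01 in C4, 6.94 in C5 and 6.69 in G33, against 6.90 in SD6, 7.43 in C1, 7.30 in C2, 7.84 in C3 and 7.23 in C11. The groups overlapped only in that C5 was just above SD6. The means of 6.54 ± 0.48 in Ph2 and 7.34 ± 0.34 in Ph1 differed by −0.79 (limma 95% interval −1.51 to −0.08, exact Mann-Whitney p 0.0714, adjusted p 0.556, limma unadjusted p 0.0332). In the 7 CELTIC animals, all Ph2 values lay below all Ph1 values, by 0.29 at the nearest pair (difference −0.90, exact Mann-Whitney p 0.0571). The difference was −0.53 without C4.

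HAL encodes histidine ammonia-lyase, the enzyme that starts histidine breakdown. It was at 9.63 in C4, 9.07 in C5 and 7.34 in G33, against 8.19 in SD6, 10.49 in C1, 9.08 in C2, 10.29 in C3 and 10.60 in C11. The difference was −1.05 with all animals (exact Mann-Whitney p 0.25). It was −1.43, or 2.70-fold lower, without SD6 (limma 95% interval −2.79 to −0.07, exact Mann-Whitney p 0.114), and −0.38 without G33.

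MME encodes neprilysin, a membrane peptidase of neutrophils and of lung epithelium. It was at 11.86 in C4, 12.07 in C5 and 11.70 in G33, against 12.97 in SD6, 11.73 in C1, 12.17 in C2, 11.98 in C3 and 11.30 in C11. All Ph2 values lay inside the Ph1 range. The means of 11.88 ± 0.19 and 12.03 ± 0.62 differed by −0.15 (limma 95% interval −0.996 to 0.69, exact Mann-Whitney p 0.786), and by 0.081 without SD6 (−0.61 to 0.77, exact Mann-Whitney p 1). The sign for MME, as for LCN2, thus depended on SD6.

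TGFBI and SULF2 act in the extracellular matrix, TGFBI as a matrix protein induced by transforming growth factor beta and SULF2 as a sulfatase that edits heparan sulfate. TGFBI was at 8.13 in C4, 8.67 in C5 and 7.83 in G33, and at 8.65 in SD6, 8.25 in C1, 9.47 in C2, 9.90 in C3 and 8.002 in C11 (difference −0.65, exact Mann-Whitney p 0.393). SULF2 was at 7.61 in C4, 6.34 in C5 and 6.95 in G33, and at 7.17 in SD6, 7.54 in C1, 7.38 in C2, 7.28 in C3 and 6.98 in C11 (difference −0.30, exact Mann-Whitney p 0.571). C5 and G33 were below all Ph1 animals for SULF2, yet C4 was above them all.

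By the sign of the mean difference, 11 of 14 markers had the human direction, 6 of 9 P2 markers higher and 5 of 5 P1 markers lower in Ph2. Of all 20 rows, 45% had a higher and 55% a lower mean in Ph2. LCN2, TCN1 and CEACAM1 were the exceptions, and RETN counted as higher with a difference of 0.058, which was −0.17 without G33 and −0.11 without C1. Without SD6 the count was again 11, with 7 of 9 and 4 of 5, while 55% of all rows were higher and 45% lower. LCN2 then had the human direction and MME did not. The median difference of the 14 markers was −0.15, beside −0.12 over all 20 rows. The median absolute difference was 0.57 in the markers and 0.32 over all rows. Without SD6 the median differences turned positive, 0.15 in the markers and 0.018 over all rows. Of the rows without a marker name, T036 to T039 differed by −0.27 to 0.23, T007 by −0.11 and T011 by −0.35. Without SD6, 2 of 20 rows (10%) had groups without overlap, and these were GPR84 and ADGRE3. In both, SD6 was the only Ph1 animal that overlapped with Ph2. Leaving out an animal can only remove overlap, so this count could not fall and is no further check.

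The phenotypes were not uniform within a group. Against the median of the 8 animals, G33 was on the side of human P2 for 13 of 14 markers, C5 for 9 and C4 for 6. In Ph1 the counts were 8 in C11, 7 in SD6, 5 in C1 and C3 and 3 in C2, so C4 lay among the Ph1 animals. G33 was the highest animal for OLFM4, CD177, TCN1, GPR84 and ANKRD22 and the lowest for CEACAM1, TGFBI and HAL. SD6 was the highest for LCN2, RETN and MME and the lowest for MMP8. C3 was the highest for ADGRE3 and TGFBI and the lowest for OLFM4 and CD177. C11 was the highest for HAL and the lowest for LCN2, ANKRD22 and MME.

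**Figure D3:**
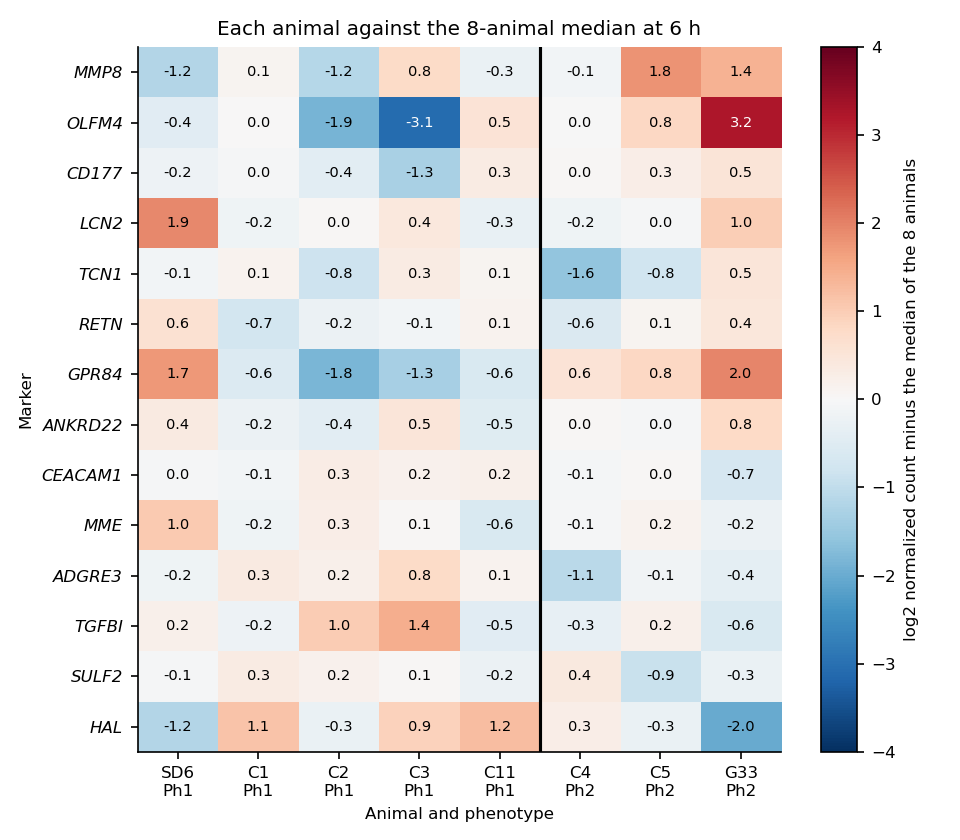
Each cell is the log2 normalized count of a marker (y axis) in an animal (x axis, Ph1 left and Ph2 right of the line) minus the median of the 8 animals, red above and blue below it. The column of G33 runs from 3.2 for OLFM4 to −2.0 for HAL.

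A ratio of markers within an animal does not depend on the factor by which that animal was normalized. Of the 91 ratios between the 14 markers, 6 (6.59%) had groups without overlap with all 8 animals. Lack of overlap by itself fixes the exact Mann-Whitney p of each of the 6 at 0.0357, the smallest possible. The adjusted p was 0.433 over the 91 ratios, so none passed. Ratios share markers, those named were picked by their gap in these same values, and all are given as descriptions. The numerators were OLFM4 and MMP8 in 2 ratios each and CD177 and GPR84 in 1 each, and the denominators were ADGRE3 in 3, TCN1 in 2 and LCN2 in 1. The widest gap, 1.12, was that of OLFM4 over TCN1, a pair of granule transcripts that are both P2 markers. Its log2 ratio was −3.03 in C4, −2.99 in C5 and −1.85 in G33, and between −7.97 (C3) and −4.16 (C11) in Ph1. TCN1 itself had a lower mean in Ph2 (difference −0.55), while that of OLFM4 was higher.

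GPR84 over LCN2 separated the groups with SD6 included. The log2 ratio was −1.66 in C4, −1.53 in C5 and −1.41 in G33, a spread of 0.13 (SD), and −2.60 in SD6, −2.80 in C1, −4.26 in C2, −4.17 in C3 and −2.69 in C11. SD6, high in both transcripts, lay with C1 and C11, and the gap was 0.94. MMP8 over ADGRE3 had a gap of 0.94 as well, with −0.91 to 0.068 in Ph2 and −3.23 to −1.85 in Ph1. OLFM4 over ADGRE3 and MMP8 over TCN1 followed with gaps of 0.56 and 0.43. Without SD6, 22 of 91 ratios (24.2%) had no overlap, a count that leaving out an animal could only raise or keep. All held GPR84 or ADGRE3, the rows without overlap in these animals, except 4. These were OLFM4 over TCN1, MMP8 over TCN1, OLFM4 over HAL and MME over CEACAM1. The rise thus mostly repeats GPR84 and ADGRE3.

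**Figure D4:**
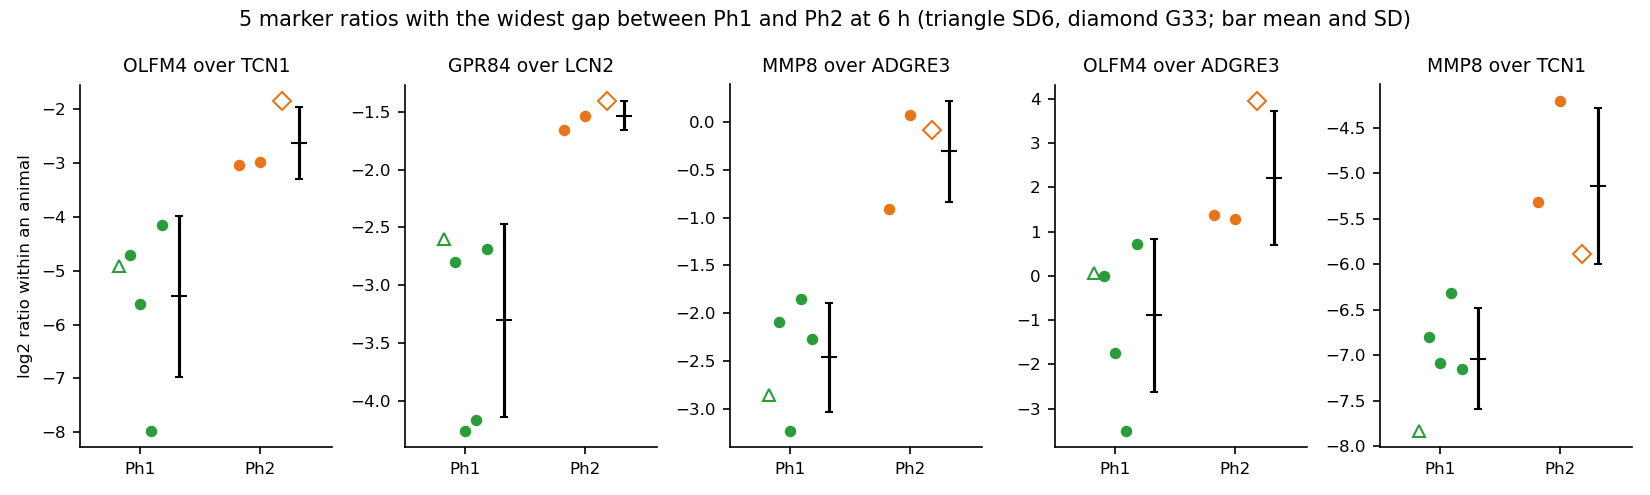
Log2 ratio of markers within an animal (y axis, scaled for each panel) for the 5 ratios with the widest gap, Ph1 in green and Ph2 in orange, with SD6 as a triangle, G33 as a diamond and bars for mean and SD. In each panel all Ph2 animals lie above all Ph1 animals.

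Whether the differences were particular to 6 h was tested with limma over all 23 animals. The phenotype difference at 6 h differed from that at 12 h in 0 of 20 rows (0%) at an adjusted p below 0.05 and in 0 at an unadjusted p below 0.05. Against 24 h, 0 of 20 rows (0%) passed after adjustment (lowest adjusted p 0.529) and 1 before it. The difference of GPR84 was 1.63 at 6 h, then 1.67 at 12 h, with 1.26 at 24 h, and that of CEACAM1 was −0.34, −0.43 and −0.33 in the same order. These 6 h values include SD6, without which the GPR84 difference at 6 h was 2.20. For OLFM4 the values were 2.31, 2.96 and −0.75, and its difference between 6 h and 24 h, 3.06, was the 1 with an unadjusted limma p below 0.05 (0.0491). HAL and ADGRE3 were lower in Ph2 at 6 h and had a difference of 0.71 and 0.17 at 24 h (unadjusted limma p 0.072 and 0.0834 for the change). At 12 h the 4 Ph1 animals were from CELTIC and 2 of 3 Ph2 animals from STARDUST, so study was mixed with phenotype there. All animals at 24 h were from STARDUST and all but SD6 at 6 h from CELTIC, so study and time cannot be told apart in the contrast with 24 h.

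**Figure D5:**
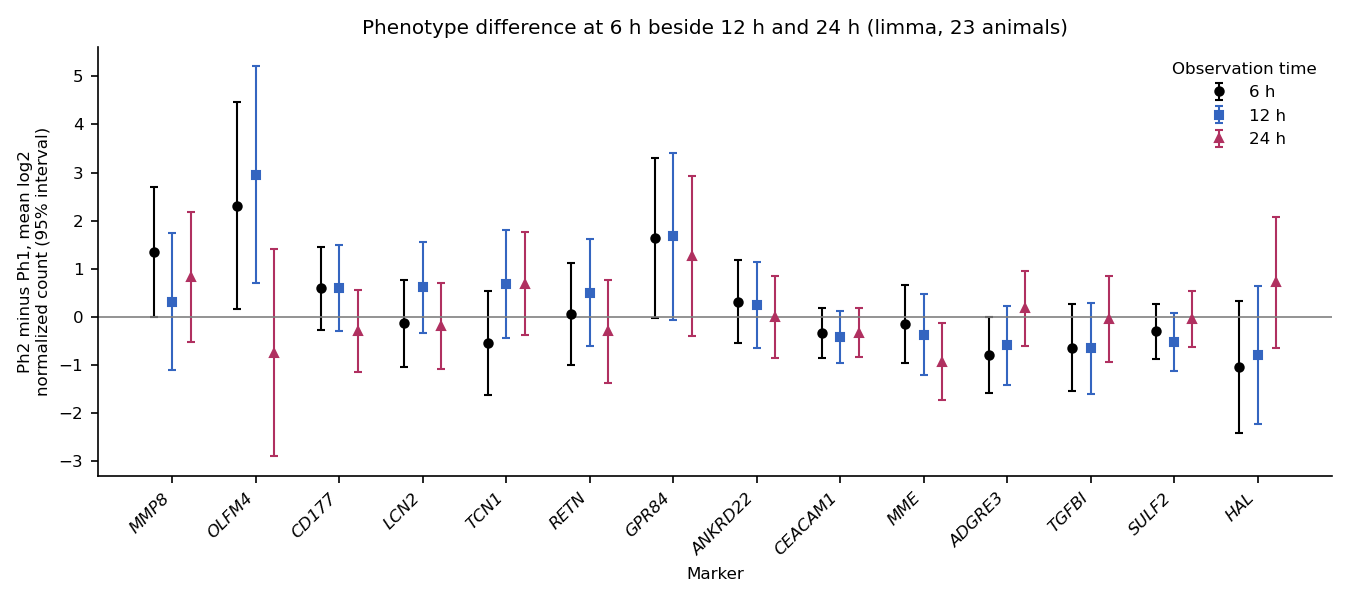
Difference in mean log2 normalized count, Ph2 minus Ph1 (y axis), for each marker (x axis) at 6, 12 and 24 h, with 95% intervals from limma over 23 animals. GPR84 has estimates between 1.26 and 1.67 with wide intervals, while OLFM4 goes from 2.31 at 6 h to −0.75 at 24 h.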

How the data were processed

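Lung RNA of 23 sheep was measured with a custom nCounter assay, and the 8 animals observed for 6 h were compared by the phenotype in their labels. The authors deposited log2 normalized counts of 20 rows. Per their methods they subtracted the mean of the negative controls plus 2 SD, normalized to 3 housekeeping genes (TBP, RPL19 and POLR2A, geometric mean) and took log2. Such subtraction would make low counts less certain on the log2 scale. Unlogged values of an animal were whole numbers times 1 factor (tolerance 0.0001), which gave the counts used here for depth. A mean plus 2 SD is seldom a whole number, and T007 and T011 kept positive counts. The deposited values may therefore not be net of background, which could not be settled. No mean of 1 to 3 rows was constant over the animals (smallest SD 0.137), so no rows could be taken for the full set used in normalization. This does not exclude single housekeeping genes among the rows. The assay held 6 housekeeping probe pairs, and which of them T036 to T039 may measure was not settled.

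Each of the 20 rows was tested with an exact Mann-Whitney U test (two-sided), after the study's methods, with Benjamini-Hochberg adjustment over the 20 rows. limma (lmFit, eBayes) gave 95% intervals and the test of time against phenotype. Scripts were tested on simulated data. Alternatives covered study, single animals, RNA integrity, test, centring, low values and scale. All 14 markers were named by role, with full statistics for those with an exact p up to 0.15 or whose sign changed without SD6. Of 14 marker symbols 14 were in the RefSeq table of the sheep, and of their accessions 4 were found, each with the same symbol. Members and lists were chosen with earlier results of these data known. The labels name separate animals as replicates. Python 3.11.15 (numpy 2.4.6, scipy 1.17.1, pandas 2.3.3, matplotlib 3.10.9) and R 4.3.3 (limma 3.58.1) were used.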

Additional observations from a re-analysis of the deposited data

Results flagged for a closer look

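In Ph1 at 6 h, the row T011, at the place of RBP7, stood out in 1 animal. C1 was at a log2 normalized count of 4.48, or 27 counts, while the other 4 Ph1 animals had 5 to 8 counts, and the gap exceeded Dixon's critical value for 5 samples. Chance marks about 1 in 20 groups in this way, and 20 rows were examined. No marker of the panel met this criterion in Ph1, and groups of 3, such as Ph2, were not examined.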

How the results depend on the processing

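Of 14 markers, 9 kept the direction of their difference when animals were left out, animals were centred otherwise or medians or unlogged means were used, and 5 changed it at least once. The other tests and the floor at T007 and T011 leave these differences as they are and check no direction. Without SD6 the difference of LCN2 was 0.25 and that of MME 0.081. Leaving out each animal in turn gave −0.50 to 0.25 for LCN2 (also above 0 without C4, 0.080, and without C5, 0.0077), −0.34 to 0.081 for MME, −0.17 to 0.34 for RETN and −0.62 to 0.0063 for SULF2. Centring each animal on the median of its 14 markers moved every difference alike by −0.44 and so gave −0.38 for RETN and −0.13 for ANKRD22, which changed sign under no other alternative. This left 9 markers in the human direction. Leaving out single animals gave 10 to 12. The exact Mann-Whitney test called 0 markers. The count was 3 with limma on the 8 animals, 2 with limma on all 23 animals (OLFM4 and ADGRE3) and 1 (ADGRE3, exact Mann-Whitney p 0.0357) with each animal centred on T036 to T039 (their mean). limma on the 7 CELTIC animals, added after the values were seen, called 4 before and 1 after adjustment over the 20 rows. Rows without overlap numbered 2 in the CELTIC animals, 1 after centring on T036 to T039, and 0 to 3 when single animals were left out (3 without C4, 2 without SD6, 1 without C11, C5 or G33). Ratios without overlap numbered 22 in the CELTIC animals and 6 to 23 when single animals were left out (23 without C4, 22 without SD6, 10 without G33). Without both SD6 and G33, added after the values were seen, rows without overlap numbered 3 (GPR84, ADGRE3 and T036), ratios 26 and markers in the human direction 9, with −0.00019 for RETN and 0.17 for MME. Leaving out an animal can remove overlap but not create it, so the counts of rows and ratios without overlap could not fall. Rows and ratios without overlap in the CELTIC animals, GPR84 and ADGRE3 among them, thus could not gain overlap by leaving out G33. The change from 6 to 24 h was called for 1 row at an unadjusted p below 0.05. The cause of these shifts was not tested. With an animal left out, the exact test could not reach 0.05, since 4 against 3 animals allow no p below 0.0571 and 5 against 2 none below 0.0952. No paired analysis was possible because no animal or replicate number is common to both phenotypes. Counts as low as 10 in CD177, 17 in MMP8 and 20 in OLFM4 limit the precision of these markers.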
